A study of Homo sapiens with 26 samples.

Results

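OCI-Ly7, an established human line of diffuse large B cell lymphoma of the germinal centre type, was compared with and without repression of POU2AF1. The comparison was chosen by label: the 6 OCI-Ly7 files titled as POU2AF1 (OCA-B) knockdown against the 6 titled as control, 12 of the 26 samples of the series. All of these cells carried a catalytically dead Cas9 fused to blue fluorescent protein and the KRAB repressor domain, delivered by lentivirus and driven by the SFFV promoter. A second lentivirus brought guide RNAs against POU2AF1 in the knockdown group and non-targeting guides in the control group. Cells grew in Iscove's medium with fetal bovine serum, RNA was extracted with Trizol, and stranded mRNA libraries were sequenced as read pairs. The labels give the transduced line as a whole and name neither clones nor the number of guides. Knockdown file 3 and control file 3 carry a 48 h mark, and the time of the others is not in the labels.

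The counts of control files 1 and 2 were as close as resampling of 1 library would make them, and control file 3 equalled their sum within 2 reads for 92.9% of 26871 genes with reads. These 3 files were counted as 1 library, which leaves 10 libraries: control replicates 1 (batch 1), 7, 8 and 9 (batch 2), and knockdown replicates 1 to 4 (batch 1) and 5 and 6 (batch 2). Batch 1 therefore has a single control library. The libraries held 28874949 to 52481528 reads matched to genes. Knockdown replicate 1 stands apart: mitochondrially encoded genes took 25.8% of its reads, while they took 7.04% to 9.74% in its fellow knockdown libraries and 7.80% to 13.2% in the controls. Knockdown replicates 2, 3 and 4 were close to each other, with a variance of 3.53 to 8.70 times the sampling noise, against 29 to 50.7 times for the other pairs of knockdown libraries. Among the controls, replicates 8 and 9 were also close, at 5.77 times the sampling noise. Other pairs of files from different control libraries differed by 19.2 to 61.1 times. The labels do not say that replicates are separate cultures, so the tests cover only the spread of these libraries, which may be technical.

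POU2AF1 encodes OCA-B, also called OBF1 or BOB.1, a B cell coactivator that does not bind DNA strongly by itself. It joins the POU domains of OCT1 (POU2F1) or OCT2 (POU2F2) on the octamer, the sequence ATGCAAAT found in immunoglobulin promoters and other B cell control elements. Mice without it form no germinal centres, the sites where antigen-activated B cells mutate their antibody genes, and germinal centre lymphomas express it strongly. In CRISPR interference the KRAB domain silences the promoter to which the guide leads it, and the gene itself stays uncut.

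Levels are given as CPM (read counts scaled to a common library size) after TMM normalisation, which compare 1 gene between libraries and not different genes. POU2AF1 (ENSG00000110777, chromosome 11, 111352252 to 111455630 on the minus strand of GRCh38) stood at 446, 459, 451 and 476 CPM in control replicates 1, 7, 8 and 9. In the batch 1 knockdown libraries it stood at 27.6, 42.4, 32.0 and 30.1 CPM, and in those of batch 2 at 89.0 and 82.2 CPM. All knockdown libraries lay far below all controls, and both batch 2 knockdown libraries lay above all 4 of batch 1. The fitted log2 change with batch as a term was -3.00 ± 0.23 (standard error; edgeR adjusted p = 0.0011), and it was -3.74 in batch 1 alone and -2.41 in batch 2 alone. The difference between the batches was 1.33 ± 0.28 on the log2 scale and did not pass the test over all genes (edgeR adjusted p = 1). Nearly all reads of the gene were assigned to 1 transcript, POU2AF1-201, with 13357.8 to 23263.6 estimated reads in the control libraries and 888.7 to 3102.5 in the knockdown libraries, not scaled for depth.

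The DNA-binding partners of OCA-B were measured beside it. POU2F2 (OCT2) was at 407 CPM in the batch 1 control and at 209 to 250 CPM in the batch 2 controls. Knockdown replicates 2 to 4 held 373 to 377 CPM, replicate 1 held 185 CPM, and the batch 2 knockdown libraries held 217 and 218 CPM. The levels thus followed the batch, apart from knockdown replicate 1, and the fitted value was -0.19 ± 0.20 (edgeR adjusted p = 1). POU2F1 (OCT1) was at 121 ± 13.8 CPM (SD, n = 4) in controls and 113 ± 17.4 CPM (SD, n = 6) in the knockdown. Per transcript length the controls held a mean of 223 TPM of POU2AF1, 87.0 TPM of POU2F2 and 14.1 TPM of POU2F1. POU2F3, POU2AF2 and POU2AF3, family members of tuft cells, stood at or below 0.142 CPM in every library and were not tested. Of 30 genes listed around POU2AF1 on chromosome 11, 14 were tested, and POU2AF1 was the only one called. The closest to the threshold was COLCA1, at -1.66 (edgeR adjusted p = 0.085).

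Of 16637 genes tested, 29 rose and 70 fell at an edgeR adjusted p below 0.05, which is 0.174% and 0.421% of the genes tested and 0.595% together. The falls were the larger group, with a median log2 change of -1.17, and 47 of the 70 were at least 2-fold. The rises had a median of 0.91, and 12 of 29 were at least 2-fold. All 70 genes that fell were below the mean of their own batch's controls in 6 of 6 knockdown libraries, and all 29 that rose were above it. Because the genes were called on these same libraries, this largely follows from the call and is no further support. Genes not called, such as POU2F2 and E2F1, were also below in 6 of 6, and the share over all genes tested was not counted. Protein-coding genes made up 59 of the falls and 27 of the rises.

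How many genes were called rested on few libraries. Without the single batch 1 control library 1 of 16522 genes was called (0.00605%), POU2AF1 itself, although all 99 kept their direction. Leaving out knockdown replicate 2, 3, 4 or 5 gave 47, 54, 47 and 37 calls, and leaving out control replicate 8 gave 59. Without knockdown replicate 1, the library rich in mitochondrial reads, 123 genes were called, 91 of them among the 99. Of the genes described below TRBC2, TNFRSF13B, WNT5A, VPREB3 and ACKR4 lost the call there, with edgeR adjusted p-values of 0.0503, 0.0605, 0.0503, 0.0648 and 0.0503. Comparing libraries within the series marks that the labels give in batch 2, in place of the batches, gave 258 calls (1.46%), 98 of them among the 99. Without knockdown replicate 1 as well it gave 1027 (5.87%), with 433 higher (2.47%) and 594 lower (3.39%), which include all 99. In both fits control replicate 9 is alone in its series mark and adds nothing to the comparison. In the second, much of the spread comes from knockdown replicates 2 to 4, which were close to each other. Its fitted variation between libraries (common biological coefficient of variation) was 0.130, against 0.270 in the main fit. The larger count is therefore no independent support for the 99.

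**Figure D1:**
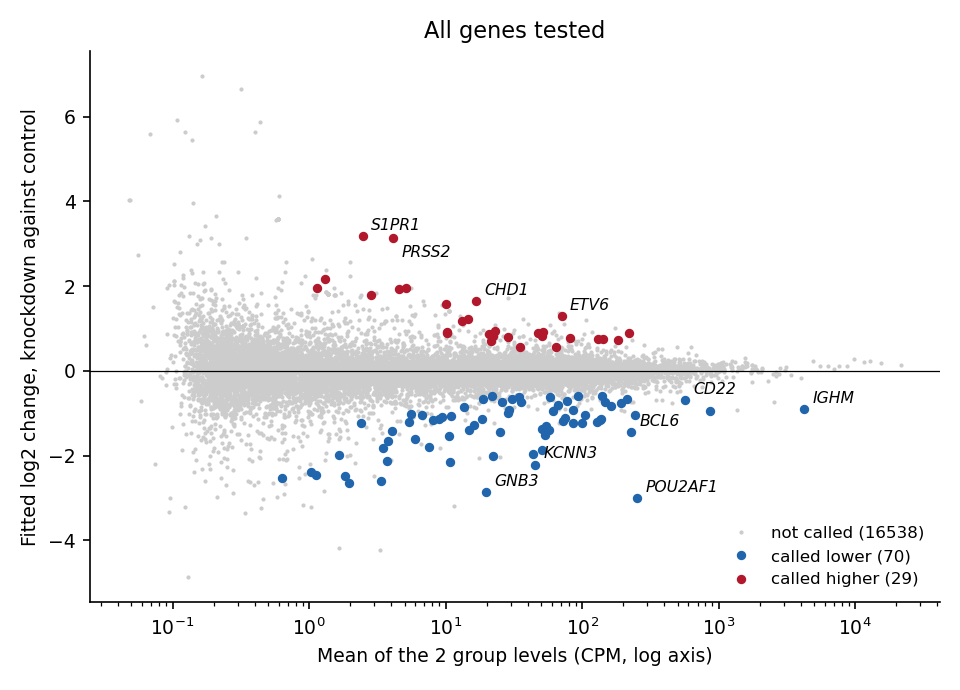
Fitted log2 change of each of the 16637 genes tested (vertical axis) against the mean of the control and knockdown group levels in CPM (horizontal log axis). Blue points are the 70 genes called lower, red points the 29 called higher and grey points the genes not called. POU2AF1 lies lowest among the called genes at -3.00, and IGHM is the called gene farthest to the right on the CPM axis.

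The octamer was searched for in the promoters of the called genes, because it is the sequence that OCT proteins and OCA-B recognise together. The search covered RefSeq windows on GRCh38.p14 from 250 bases before to 50 bases after each gene start, for ATGCAAAT on either strand (its reverse complement reads ATTTGCAT). Among genes called lower, 45 of 70 matched a window by symbol and 5 of these held an octamer (11.1%). Among genes called higher, 27 of 29 matched a window and 0 held one, which allows a share of up to 11.1%. Of all tested genes with a window, 229 of 10782 held one (2.12%), and 598 of 27305 RefSeq genes with a window did (2.19%). A match describes these letters in this window and is not evidence of binding. The 5 sequences are shown because they are the called genes whose windows hold the motif, with the octamer in capitals and up to 40 bases on each side, read 5′ to 3′ on the strand of the gene.
KCNN3: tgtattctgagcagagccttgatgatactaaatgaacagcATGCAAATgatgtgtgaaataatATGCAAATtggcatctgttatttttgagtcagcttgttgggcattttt
IL4R: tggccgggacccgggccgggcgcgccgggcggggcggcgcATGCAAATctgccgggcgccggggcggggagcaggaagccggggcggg
FA2H: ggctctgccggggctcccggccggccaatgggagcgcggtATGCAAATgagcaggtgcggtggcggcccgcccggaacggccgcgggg
CABLES2: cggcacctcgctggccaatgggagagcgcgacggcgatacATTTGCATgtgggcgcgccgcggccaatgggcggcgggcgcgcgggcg
VPREB3: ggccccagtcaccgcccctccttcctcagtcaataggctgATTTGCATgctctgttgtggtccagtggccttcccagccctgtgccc

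These stretches lie at chr1:154859880-154859990 (KCNN3, minus strand), chr16:27313819-27313906 (IL4R, plus), chr16:74774834-74774921 (FA2H, minus), chr20:62407324-62407411 (CABLES2, minus) and chr22:23754426-23754512 (VPREB3, minus). KCNN3 has 2 octamers in the same orientation, beginning 74 and 51 bases before the gene start. In the other 4 genes a single octamer begins 115 (IL4R), 61 (FA2H), 86 (CABLES2) and 47 bases (VPREB3) before it. Transcripts that start within 100 bases of that gene start held all control reads of CABLES2 and VPREB3, 75.0% of those of IL4R and 75.5% of those of FA2H. In the knockdown these transcripts held 83.4% of IL4R reads and 72.8% of FA2H reads. For KCNN3 they held 25.5% of control reads and 21.5% of knockdown reads, so most KCNN3 reads were assigned to transcripts with another start. The transcript IL4R-201, which starts 27315 bases away, held 23.0% of control reads of IL4R and 14.7% of knockdown reads. The fall of IL4R was thus not confined to the start with the octamer. The motif was also present in windows of genes that were not called. Among members of the gene lists these were 15 tested genes, 9 with values below 0 and 6 above. They ran from the germinal centre factors MEF2C (-0.998, edgeR adjusted p = 0.12) and MEF2B (-0.96, edgeR adjusted p = 0.067) to the chemokine receptor CCR6 (0.91) and the early growth response factor EGR2 (1.39, edgeR adjusted p = 0.94).

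KCNN3, a calcium-activated potassium channel, was at 65.2, 70.1, 82.4 and 87.8 CPM in the controls and at 9.92, 8.35, 10.1 and 9.76 CPM in the batch 1 knockdown. The batch 2 knockdown libraries held 15.4 and 30.4 CPM, between the 2 sets, and the fitted change was -2.21 ± 0.22 (edgeR adjusted p = 0.0021). IL4R, the alpha chain of the receptors for interleukins 4 and 13, fell from 69.7 to 87.6 CPM in the controls to 19.9 to 27.0 CPM in batch 1 and 39.2 and 42.3 CPM in batch 2. Its fitted change was -1.30 ± 0.17 (edgeR adjusted p = 0.0073). VPREB3, a chain of the precursor B cell receptor complex, stood at 130 to 185 CPM in controls, at 47.6 to 50.3 CPM in batch 1 knockdown libraries and at 63.5 and 113 CPM in batch 2. These 3 genes, like POU2AF1, were lowest in the batch 1 knockdown, higher in the batch 2 knockdown and highest in the controls. FA2H, a fatty acid hydroxylase, fell at a low level, from 1.89 to 0.353 CPM in the group means (-2.45), and CABLES2, a regulator of cyclin-dependent kinases, fell by 0.75 on the log2 scale. Neither kept that order: FA2H was at 0.135 to 0.464 CPM in batch 1 and 0.441 and 0.388 CPM in batch 2, and CABLES2 at 25.4 to 27.7 CPM and 27.0 and 30.1 CPM.

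Transcription factors of the germinal centre programme came next. Of 27 tested factors, 3 fell (BCL6, MYBL1 and IRF8), 1 rose (ETV6) and 23 were not called, with a list median of -0.05 against -0.004 over all genes. BCL6, the repressor that holds B cells in the germinal centre state, was at 303, 415, 347 and 308 CPM in the controls. It was at 60.5 CPM in knockdown replicate 1, at 113 to 127 CPM in the other batch 1 libraries and at 137 and 136 CPM in batch 2, below every control. The change was almost the same in both batches, -1.51 and -1.37, with a fitted value of -1.44 ± 0.20 (edgeR adjusted p = 0.011).

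MYBL1, a MYB family transcription factor of germinal centre cells, varied among the controls, at 88.8, 117, 58.9 and 66.1 CPM, but lay within 29.3 to 34.7 CPM in all 6 knockdown libraries. Its fitted change was -1.40 ± 0.19 (edgeR adjusted p = 0.0093). IRF8, an interferon regulatory factor of B and myeloid cells, fell from 153 to 204 CPM to 52 to 84.7 CPM, with a fitted change of -1.22 ± 0.16 (edgeR adjusted p = 0.0071). Like BCL6, IRF8 was lowest in knockdown replicate 1, and the part of that library's mitochondrial share in this was not tested. Without it the fitted changes were -1.36 for BCL6 (edgeR adjusted p = 0.0014) and -1.16 for IRF8 (edgeR adjusted p = 0.0018). ETV6, an ETS family repressor, was at 29.6, 30.9, 53.2 and 57.9 CPM in the controls and at 88 to 103 CPM in all 6 knockdown libraries, a change of 1.29 ± 0.22 (edgeR adjusted p = 0.027). The B lineage factors PAX5 (-0.01), EBF1 (0.25), BACH2 (-0.03) and IRF4 (-0.12) were not called.

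Enzymes and surface proteins of germinal centre B cells gave falls in 3 of 26 tested members and no rise. Their median was -0.32, and 21 of the 26 had values below 0, against 8431 of 16637 genes overall. NUGGC, a nuclear GTPase linked to antibody gene diversification, was at 96.0 CPM in the batch 1 control against 148 to 180 CPM in the batch 2 controls. Its knockdown levels kept that order, 32.7 to 44.9 CPM in batch 1 and 69.6 and 80.5 CPM in batch 2, so the fitted change of -1.23 ± 0.12 (edgeR adjusted p = 0.0021) was nearly equal in both batches. RGS13, which damps chemokine receptor signalling, fell from 99.8 to 146 CPM to 38.6 to 60.8 CPM (-1.22 ± 0.14; edgeR adjusted p = 0.0049). The surface markers MME (0.45), CD38 (0.05) and FAS (0.23) and the confinement receptor S1PR2 (-0.91, edgeR adjusted p = 0.77) were not called.

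**Figure D2:**
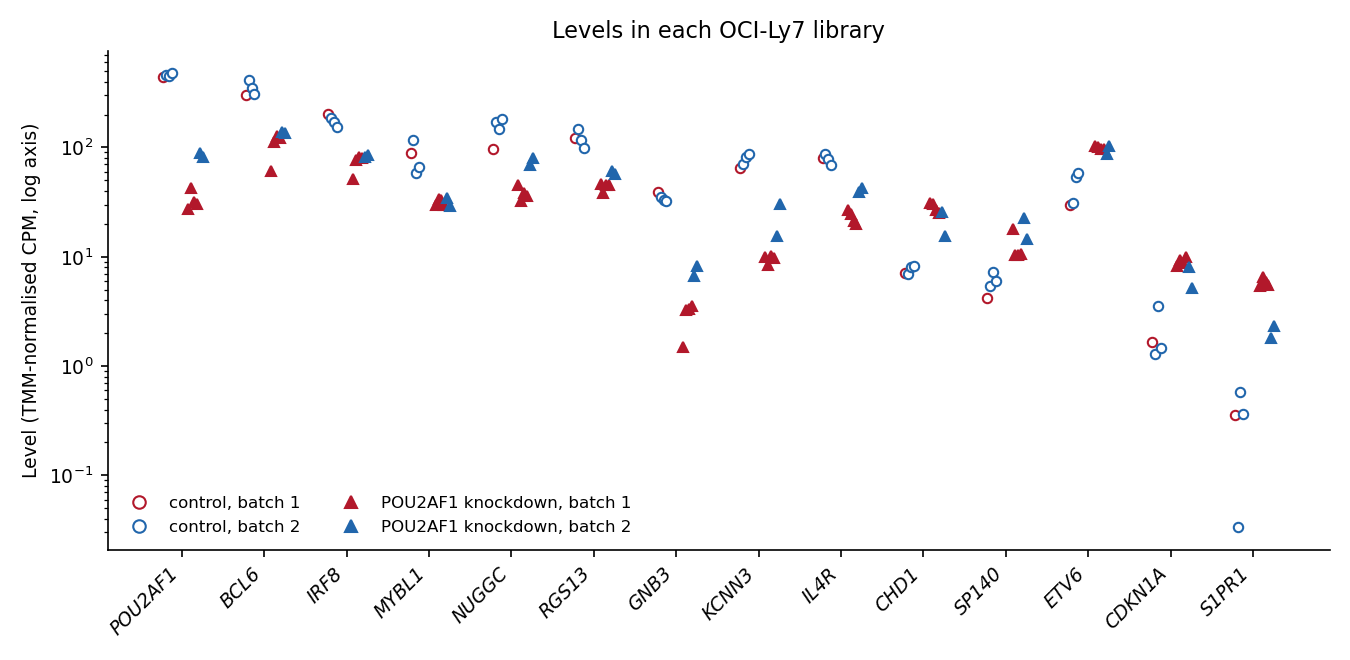
Level of 14 genes in each OCI-Ly7 library, in TMM-normalised CPM on a log axis, with open circles for the 4 control libraries, triangles for the 6 POU2AF1 knockdown libraries, red for batch 1 and blue for batch 2. POU2AF1, GNB3 and KCNN3 are lower in the batch 1 than in the batch 2 knockdown libraries, while MYBL1 and ETV6 lie in 1 narrow band in all 6.

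Of 22 tested chains and coreceptors of the B cell antigen receptor 3 fell, CD22, FCRL3 and PECAM1. The list median was -0.05. CD22, a sialic acid-binding receptor, was at 683 to 775 CPM in controls, 309 to 342 CPM in batch 1 knockdown libraries and 529 and 576 CPM in batch 2. Its change was -1.05 in batch 1 and -0.43 in batch 2 (fitted -0.70 ± 0.13; edgeR adjusted p = 0.038). PECAM1, an adhesion receptor with inhibitory motifs, fell from 69.6 to 107 CPM to 14.7 to 38.8 CPM (-1.52 ± 0.21), and FCRL3, an Fc receptor-like protein, fell from 6.0 ± 1.08 to 2.06 ± 0.40 CPM (SD, n = 4 and 6). The signalling chains CD79A (0.07) and CD79B (-0.26) and the coreceptor CD81 (-0.10) were not called.

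Behind the receptor, 2 of 33 tested kinases and adaptors fell. DOK3, an adaptor that restrains receptor signalling, was at 179 to 229 CPM in controls and 99.4 to 147 CPM in the knockdown (-0.84 ± 0.13; edgeR adjusted p = 0.023). NFATC1, a calcium-responsive transcription factor, was at 35.8 to 43.5 CPM and 22.1 to 32.2 CPM (-0.62 ± 0.11; edgeR adjusted p = 0.036). The median of the list was 0.01, and the kinase BTK was at 0.03.

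Of 16 tested immunoglobulin constant, joining and surrogate chain genes, IGHM and VPREB3 fell and none rose, with a median of -0.32. IGHM, the constant region of the mu heavy chain, stood at 6089, 4635, 6245 and 5177 CPM in the controls and at 2285 to 3439 CPM in the knockdown, without overlap. Its fitted change was -0.91 ± 0.15 (edgeR adjusted p = 0.027). The variable segment IGHV1-69D fell by a similar amount, 0.95 on the log2 scale. It has near-identical copies in the locus, so its reads could be split by the estimation, and it was named after its value was seen. The kappa constant gene IGKC had a value of -0.74 (edgeR adjusted p = 0.17) and the J chain, JCHAIN, -0.26. The list did not move one way: 9 of the 16 had values below 0 and 7 above, up to 2.56.

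A list of 13 genes reported elsewhere to depend on OCT proteins or OCA-B had 10 tested members, of which BCL6 and IGHM fell. Its median was -0.50, and 9 of the 10 had values below 0, against 8431 of 16637 genes overall. Over all genes tested 0.421% fell. The list was chosen with earlier results of these data known, so these counts are no independent support. BTK was the exception at 0.03, and CD36, IL5RA and IL6 were too low to test. Of 19 MHC class II genes edgeR called none, with a median of -0.21. HLA-DRA, the alpha chain of HLA-DR, was closest, at 437 to 736 CPM in controls, 220 to 282 CPM in batch 1 and 407 and 514 CPM in batch 2 (-0.76 ± 0.20; edgeR adjusted p = 0.18). It was called lower with the series block (-0.91, edgeR adjusted p = 0.028) and by DESeq2 (DESeq2 adjusted p = 0.047). Among 17 tested plasma cell genes no member but POU2AF1, which the list contains, was called. XBP1 (-0.08), IRF4 (-0.12) and PRDM1 (0.48) had adjusted p-values of at least 0.71 by edgeR.

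Genes of naive and memory B cells showed the highest median of the B cell lists, 0.48 over 22 tested members, with S1PR1 and TNFRSF13B higher and IL4R lower. S1PR1, the receptor that leads lymphocytes out of lymphoid tissue, was barely present in controls, at 0.360, 0.0337, 0.584 and 0.363 CPM. It stood at 5.38 to 6.58 CPM in the batch 1 knockdown and at 1.79 and 2.33 CPM in batch 2 (fitted change 3.17 ± 0.55; edgeR adjusted p = 0.030). TNFRSF13B, the TACI receptor, rose from 5.50 to 9.54 CPM to 11.7 to 17.2 CPM (0.91 ± 0.17; edgeR adjusted p = 0.0495). KLF2 (1.06, edgeR adjusted p = 0.15), CCR7 (1.83, edgeR adjusted p = 0.31) and CD69 (1.33, edgeR adjusted p = 0.22) were not called. The list did not move one way: 7 of the 22 had values below 0, among them CD1C (-2.05, edgeR adjusted p = 0.096) and CR2 (-1.81, edgeR adjusted p = 0.17), which were not called either. SGPP1, a phosphatase that degrades the S1PR1 ligand, was among the 5 falls with the smallest p. Its level differed between the batches in both groups, 34.5 CPM in the batch 1 control against 15.7 to 18.0 CPM in the batch 1 knockdown, and 17.3 to 20.1 CPM in the batch 2 controls against 8.22 and 8.01 CPM (fitted -1.14 ± 0.11; edgeR adjusted p = 0.0018).

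**Figure D3:**
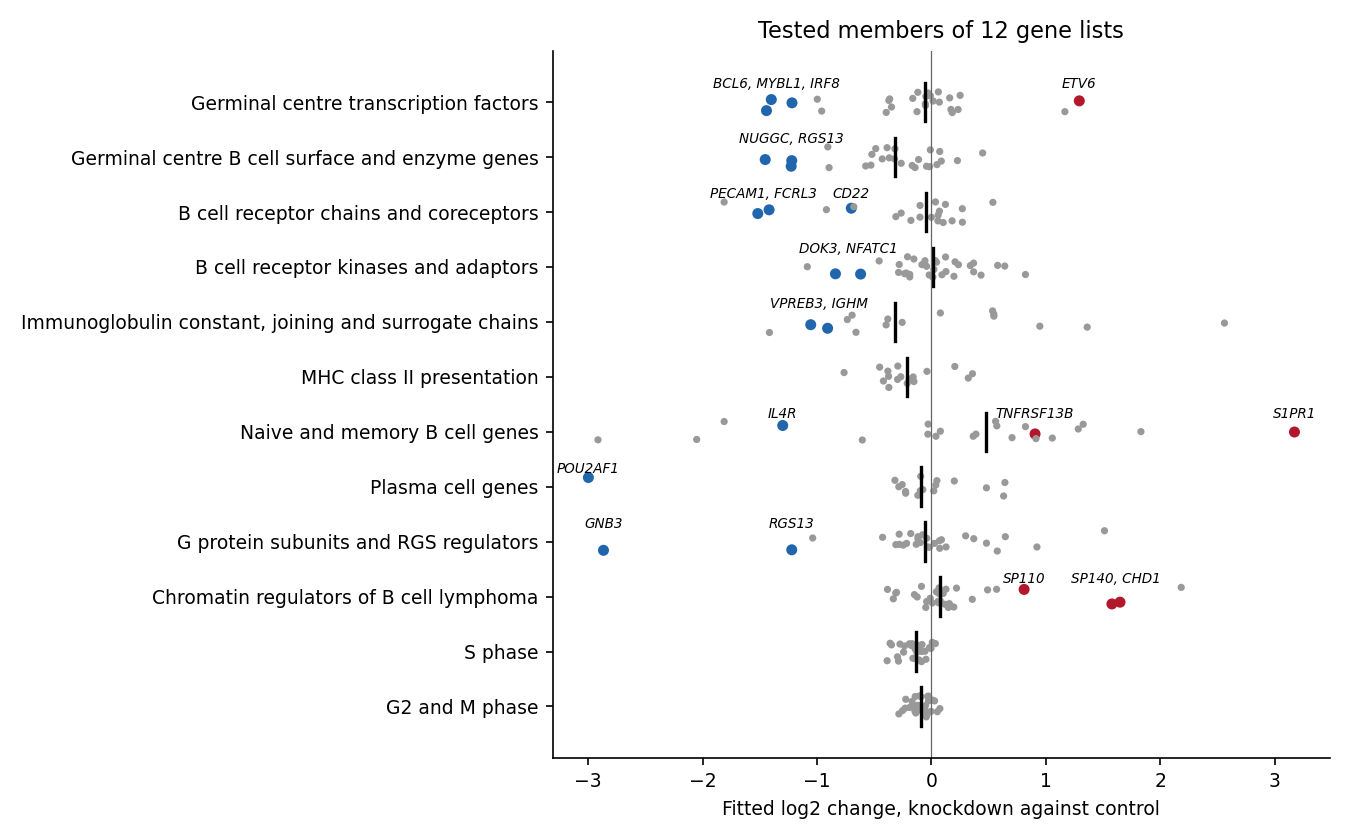
Fitted log2 change (horizontal axis) of each tested member of 12 gene lists, with genes called lower in blue, called higher in red and not called in grey. The vertical height within a row has no meaning, and black bars mark list medians, which run from -0.32 for germinal centre surface and enzyme genes to 0.48 for naive and memory B cell genes.

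Among called genes of at least 5 CPM, the largest falls outside these lists were in genes of mixed function. GNB3 (chromosome 12, 6839954 to 6847393, plus strand) encodes a beta subunit of heterotrimeric G proteins. It was at 32.1 to 39.5 CPM in the controls, at 1.48 to 3.54 CPM in batch 1 and at 6.65 and 8.17 CPM in batch 2. The fitted change of -2.87 ± 0.31 (edgeR adjusted p = 0.0037) was the largest called fall after POU2AF1, and of 30 tested G protein and RGS genes only GNB3 and RGS13 were called. LOXL2, a lysyl oxidase that crosslinks collagen, fell from 29.7 to 41.3 CPM to 4.52 to 11.8 CPM (-2.0 ± 0.18; edgeR adjusted p = 0.0018). MYH11, a myosin heavy chain of smooth muscle, fell from 73.2 to 86.7 CPM to 6.13 CPM in knockdown replicate 1 and 17.5 to 32.4 CPM in the other 5. FBP1, the gluconeogenic fructose bisphosphatase, varied from 43.9 to 99.8 CPM among controls and lay at 9.40 to 22.5 CPM in the knockdown. Its fall was equal in both batches, -1.97 and -1.91, and it was the only call among 29 genes of glycolysis, gluconeogenesis and hypoxia.

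Further falls were those of PDZRN4, a ubiquitin ligase-like scaffold (-2.14), the Wnt ligand WNT5A (-1.79) and NLRP4 (-1.53). C19orf38 (-2.12), the long noncoding RNA LINC02006 (-1.83), the pseudogene FAR2P2 (-1.66) and the antisense gene ENSG00000225885 (-1.61) also fell, from 5.66 to 9.40 CPM in the control means. The libraries were stranded, but the strand setting of the counting is not given in the sources used here. Whether reads of the antisense gene were kept apart from those of the opposite strand was not tested. TG, thyroglobulin, fell from 3.73 to 10.3 CPM to 0.430 to 1.66 CPM (-2.61 ± 0.36), and its annotated span overlaps another gene. PTPN18, a tyrosine phosphatase, had one of the most precise falls, from 263 to 405 CPM to 111 to 196 CPM (-1.04 ± 0.10; edgeR adjusted p = 0.0018).

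Among the genes that rose, 3 of 34 tested chromatin regulators were called higher and none lower: CHD1, SP140 and SP110. Over all genes tested 0.174% were called higher. The list median was 0.07 against -0.004 over all genes, and the list was chosen with earlier results of these data known. CHD1 (chromosome 5, 98853985 to 98928957, minus strand), a nucleosome remodeller of active genes, was at 6.92 to 8.18 CPM in controls. The batch 1 knockdown libraries held 25.1 to 31.1 CPM and those of batch 2 held 25.6 and 15.6 CPM (1.65 ± 0.19; edgeR adjusted p = 0.0049). SP140, which reads chromatin marks in immune cells, rose from 4.17 to 7.30 CPM to 10.3 to 22.8 CPM (1.58 ± 0.23), and SP110 rose from 17.6 ± 2.49 to 27.1 ± 6.58 CPM (SD, n = 4 and 6; 0.81 ± 0.13). SP110 and SP140 overlap on opposite strands of chromosome 2, and the counting's use of strand is not given in the sources used here. SP100 (0.17) and SP140L (0.36), their relatives, were not called, nor were EZH2 (-0.04), KMT2D (-0.05) and CREBBP (0.13).

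CDKN1A, the cyclin-dependent kinase inhibitor p21, was at 1.65, 1.28, 3.57 and 1.45 CPM in controls and at 5.20 to 9.87 CPM in the knockdown (1.96 ± 0.35; edgeR adjusted p = 0.036). It was the only call among 23 tested p53 response genes, whose median was 0.03, and among 17 G1 cyclins, kinases and inhibitors. Cell cycle genes had small values and none was called. Of 30 S phase genes 28 were below 0, with a median of -0.13. Of 30 G2 and M phase genes 26 were below 0, with a median of -0.09. Over all genes tested 8431 of 16637 were below 0, with a median of -0.004. TRAF3, a brake on noncanonical NF-kB signalling, was at 4.55 to 8.80 CPM in controls, 14.0 to 21.6 CPM in batch 1 and 9.43 and 9.17 CPM in batch 2 (0.88 ± 0.16; edgeR adjusted p = 0.043). It was the only one of 22 tested genes of the CD40 and NF-kB response called, and the only one of the 99 genes to miss the threshold with the series block (0.84, edgeR adjusted p = 0.052). PTPN1, a phosphatase that dampens cytokine receptor signalling, rose within narrow ranges, 47.3 to 53.8 CPM against 68.9 to 81.1 CPM (0.57 ± 0.09; edgeR adjusted p = 0.023).

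Other rises were those of PDE4B, a cyclic AMP phosphodiesterase (1.22), AAK1, a kinase of clathrin adaptors (1.17), and CMTM7 (0.94). RUFY3 (0.91), the lysosomal membrane protein LAPTM5 (0.89), the RAS effector RASSF5 (0.88) and TTC39C (0.87) rose as well. LAPTM5 was at 136 to 177 CPM in controls and 246 to 334 CPM in the knockdown. The processed pseudogene ENSG00000262488 rose from 1.62 to 1.99 CPM to 4.75 to 9.16 CPM (1.94 ± 0.22; edgeR adjusted p = 0.0049).

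PRSS2, a trypsinogen gene within the T cell receptor beta locus on chromosome 7, had the second largest called rise, after S1PR1. It was at 0.487 to 1.19 CPM in controls and at 3.20 to 10.5 CPM in the knockdown (3.14 ± 0.36; edgeR adjusted p = 0.0049), and near-identical trypsinogen copies make its assignment uncertain. TRBC2, a T cell receptor beta constant gene 26476 bases beyond it, rose from 89.6 to 118 CPM to 156 to 213 CPM (0.75 ± 0.14; edgeR adjusted p = 0.040). Of 26 markers of T and NK cells 12 were tested, with a median of 0.47 and TRBC2 the only one called. CD3E was at 1.15 CPM in controls and 1.37 CPM in the knockdown and TRAC at 31.3 and 23.3 CPM, while CD3D, CD2, CD4 and NKG7 were below the filter. The summed level of the 26 markers was 472 to 543 TPM in controls, 506 TPM in knockdown replicate 1 and 640 to 753 TPM in the other 5, and no marker was at 0 in all libraries. Of this sum TRBC2 alone held a mean of 212 TPM in controls and 372 TPM in the knockdown. The part of these markers in other results was not tested. In bulk RNA a change in the number of cells of a type and a change in RNA per cell cannot be told apart. Markers of B cells were all present, with CD79A at 864 CPM and MS4A1 at 798 CPM in controls, and only CD22 of the 8 was called.

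In several other lists edgeR called no member. MYC had a value of 0.52 (edgeR adjusted p = 0.097), with 249 to 312 CPM in controls and 393 to 501 CPM in the knockdown, and it led both the immediate early genes and the MYC network. ELOVL6, a fatty acid elongase, led sterol and fatty acid synthesis (1.09, edgeR adjusted p = 0.096), SYVN1, a ubiquitin ligase, led endoplasmic reticulum folding (-0.70, edgeR adjusted p = 0.067) and ISG20, an exonuclease, led the type I interferon response (-0.49, edgeR adjusted p = 0.067). The smallest p-values among the BCL2 family (BCL2L12), S phase (E2F1), G2 and M phase (PTTG1) and the ATF4 response (SLC7A11) gave edgeR adjusted p-values of 0.16 to 0.79. Other fits did call some of these: MYC, ELOVL6, SYVN1 and ISG20 passed with DESeq2 (DESeq2 adjusted p of 0.00012 to 0.0019) and with the series block (edgeR adjusted p of 0.024 to 0.046), and BCL2L12 passed with DESeq2 (DESeq2 adjusted p = 0.032). The genes called in the remaining lists are those described above: S1PR1 of 23 migration and confinement receptors (median 0.07), KCNN3 of 28 ion channels (0.04), PTPN1 and IL4R of 24 cytokine receptor and JAK-STAT genes (0.06), WNT5A of 26 WNT genes (0.03), and LOXL2 and MYH11 of 16 cytoskeleton and matrix genes (-0.09). Mitochondrially encoded genes had a median of 0.14. MT-ND4L was at 4514 CPM in knockdown replicate 1 and at 909 to 1663 CPM in the 9 other libraries. Myeloid markers (AIF1, 0.28) and epithelial and stromal markers (COL1A1, at most 0.569 CPM in any library) were not called.

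The response was compared between batches because the batch 2 libraries kept more POU2AF1 RNA. Among the 70 genes that fell the median was -1.36 in batch 1 alone and -1.03 in batch 2 alone, and the change was larger in batch 1 for 56 of them. Among the 29 that rose the medians were 1.15 and 0.85, and 17 were larger in batch 1. No single gene passed the test of the difference: edgeR called 0 of 17650 (0%), with 302 at an unadjusted p below 0.05, and DESeq2 called 2. Batch 1 alone gave 24 calls and batch 2 alone 0, with 377 at an unadjusted p below 0.05. The batches share no control library, and the batch 1 changes all use the same single control. The 99 genes were called on these same libraries, and only 1 of them was called without that control. This choice favours genes with a large change in batch 1. The medians and counts of called genes therefore cannot show that batch 1 responded more. Over all genes tested the medians were 0.018 in batch 1 and 0.011 in batch 2, and the share larger in batch 1 was not counted.

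**Figure D4:**
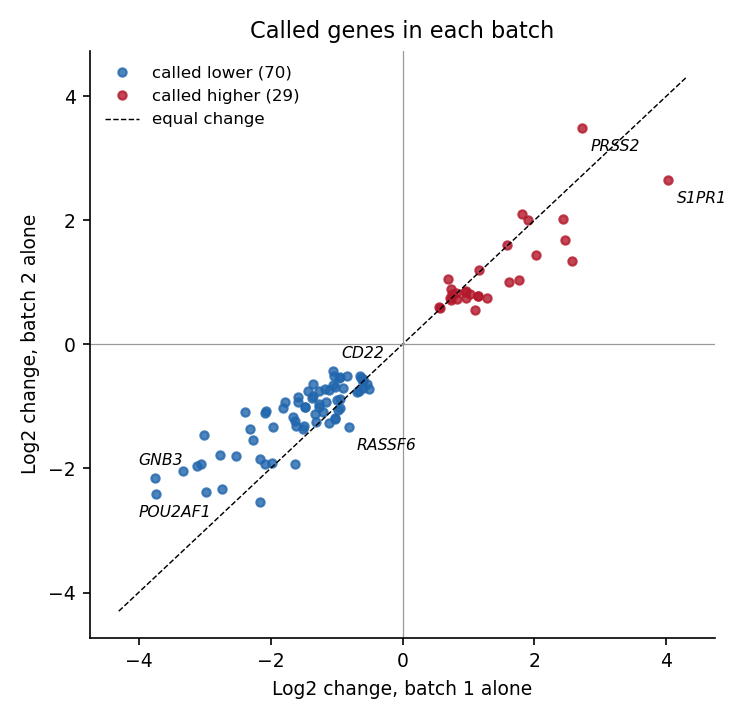
Log2 change of the 99 called genes fitted in batch 1 alone (horizontal axis) against batch 2 alone (vertical axis), with genes called lower in blue and higher in red and a dashed line of equal change. All 99 points lie in the quadrants of equal sign, and POU2AF1, GNB3 and S1PR1 are displaced toward a larger change in batch 1.

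The 12 samples were compared with the same knockdown in SUDHL4, another germinal centre lymphoma line, which had 1 library in each group after repeated files were merged. With 1 library a group no test was made there, and its values are log2 ratios of CPM with a prior count of 2. POU2AF1 was at 404 CPM in the SUDHL4 control and 74.0 CPM in its knockdown. Of the genes that fell in OCI-Ly7, 49 of 65 measured in SUDHL4 had a ratio of the same sign (75.4%), and of those that rose 21 of 28 (75%). Over all 14730 genes measured in both lines the share was 50.2%. BCL6 (-1.52), GNB3 (-2.29), LOXL2 (-2.26) and SP140 (3.28) had ratios of the same sign as in OCI-Ly7.

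Some B cell genes stood differently in the 2 lines. CD22 was at 491 CPM in the SUDHL4 control and 945 CPM in its knockdown and IRF8 at 125.5 and 170 CPM, both higher where OCI-Ly7 was lower. RGS13 was at 136 CPM in both SUDHL4 libraries, and CHD1 at 55.8 and 55.2 CPM. Whether these differences exceed the spread between SUDHL4 cultures was not tested.

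**Figure D5:**
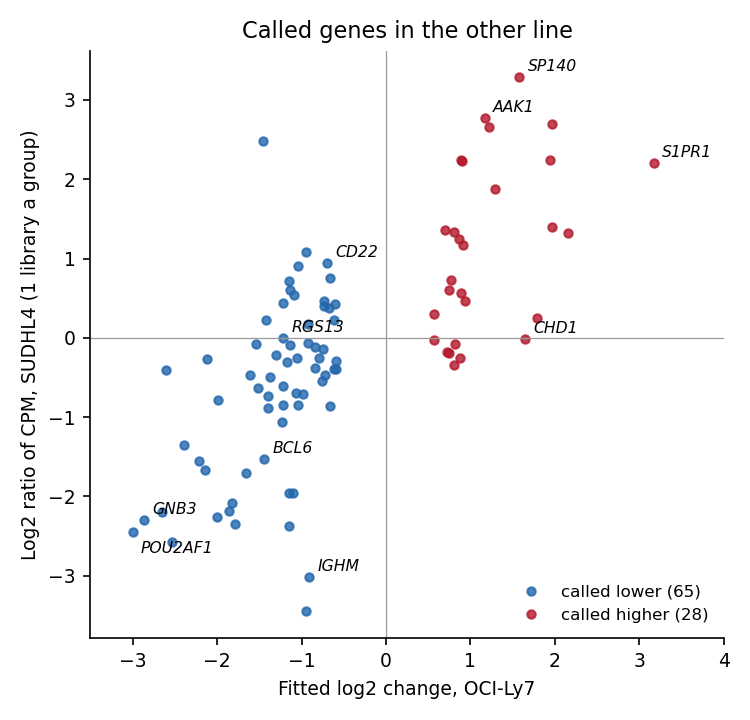
Log2 ratio of CPM in SUDHL4, 1 library a group (vertical axis), against the fitted log2 change in OCI-Ly7 (horizontal axis) for the called genes measured in both lines, 65 called lower in blue and 28 called higher in red. BCL6 and GNB3 lie below 0 on both axes and SP140 above 0 on both, while CD22, called lower in OCI-Ly7, lies above 0 in SUDHL4.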

How the data were processed

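Per the submitters' processing notes the authors trimmed reads with fastp and quantified them with Salmon 1.5.1 on GRCh38.p13. The annotation and strand setting they used were not given in the sources used here. The deposited files list 227912 transcripts with the authors' estimated counts and TPM. Estimated counts of the 205964 transcripts found in GENCODE 29 were summed per gene and rounded, with symbols from a current gene table. TPM served only for marker sums and levels between genes. Pairs of files that differed by under 1.5 times the sampling noise were merged. edgeR 4.0.16 (TMM scaling, batch as a term, robust quasi-likelihood test, genes kept by filterByExpr at 10 counts) was fitted to 10 libraries in R 4.3.3, and calls required an adjusted p (Benjamini-Hochberg, all genes in the fit) below 0.05. DESeq2 1.42.0, other scalings, filters, blocks and left-out libraries were alternatives. In data simulated as independent libraries (16097 genes), 50 genes with a mean of at least 5 CPM were changed at each fold. The test called 18% of those changed 1.5-fold and 68% at 2-fold. These rates do not cover genes at lower levels or libraries that are close to each other.

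Named genes were the POU2F and POU2AF family, the 15 largest called falls and rises with a symbol, 5 CPM and all libraries on 1 side, the 5 smallest p-values in each direction, the called members of each of 36 lists and, in lists without a call, the member with the smallest p. Some genes that these rules name are not reported here. The comparison, lists and rules were chosen with earlier results of these data known.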

Additional observations from a re-analysis of the deposited data

Results flagged for a closer look

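In groups of 4 controls or 6 knockdown libraries, 11 of 102 sets of values had 1 library far from the others. Chance flags about 1 in 20 independent sets. These sets share the same libraries, pool both batches and mostly hold genes chosen by their calls, so that rate is no fair comparison. The mitochondrially encoded share was 25.8% in knockdown replicate 1. In the same library BCL6 (60.5 CPM) and IRF8 (52 CPM) lay below the other knockdown libraries. Knockdown replicate 6 lay above the others for KCNN3 (30.4 CPM), VPREB3 (113 CPM) and ENSG00000225885 (5.39 CPM), and knockdown replicate 5 for TNFRSF13B (17.2 CPM). Among controls, replicate 8 was high for CDKN1A (3.57 CPM) and VPREB3 (185 CPM), replicate 1 was high for SGPP1 (34.5 CPM), and replicate 9 was low for PDZRN4 (14.3 CPM). Each of these genes changed in the same direction without the library in question. Because they were called on these same libraries, this was largely given in advance.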

How the results depend on the processing

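The direction of all 99 called genes was the same under every alternative run. The number called was not. Every alternative reuses libraries on which the 99 were called, so the equal direction was largely given in advance. For genes higher and lower (29 and 70 as reported), no filter on low counts gave 76 and 134, DESeq2 173 and 227, blocking on the series marks of batch 2 in place of the batches 100 and 158, the same without knockdown replicate 1 433 and 594, and batch 1 alone 7 and 17. Batch 2 alone gave 0 and 0, with 377 genes at an unadjusted p below 0.05. Adding the POU2F2 knockdown libraries gave 45 higher. Leaving out each library in turn gave 0 to 38 higher and 1 to 85 lower; the low end is the fit without the batch 1 control, which removes batch 1 from the comparison. Of the 99 genes DESeq2 called 99, the series block 98, the fit with the POU2F2 knockdown libraries 82, no batch term 74, batch 1 alone 19 and batch 2 alone 0. POU2AF1 kept its call except in batch 2 alone (-2.41, adjusted p = 0.12 by edgeR), with a range of -3.15 to -2.43 over the left-out libraries. For the difference between batches, where 0 genes were called, DESeq2 called 2, no filter 4 and the left-out libraries 0 to 2. RLE scaling, a minimum count of 30, no batch term and leaving out mitochondrially encoded genes kept both counts within 1.5 times. By replicate number, no paired analysis was possible because control files 1 to 3, which share numbers with knockdown libraries, hold 1 library. The series marks do pair knockdown replicates 5 and 6 with control replicates 7 and 8, and the block on them is the one given above. With 1 control library in batch 1, the spread of controls there is assumed to be that of batch 2.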

Other observations

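Some called genes were outside the rule for named genes and were chosen here after their values were seen. The Notch receptor NOTCH2 (0.72) and the Notch coactivator MAML2 (2.16) both rose on the log2 scale, with MAML2 at 0.485 CPM in controls and 2.11 CPM in the knockdown. Falls included the chemokine scavenger receptor ACKR4 (-2.65), the haematopoietic repressor GFI1B (-2.53), the oestrogen receptor ESR2 (-1.39), the mTOR-binding protein DEPTOR (-1.10), the receptor phosphatase PTPRS (-1.18) and the kinase A subunit PRKAR2B (-1.15). ACKR4 and GFI1B were at 3.43 and 1.09 CPM in the controls, and ACKR4 lost its call without knockdown replicate 1 (edgeR adjusted p = 0.0503).

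Called genes within 100 kb of another called gene formed 4 pairs, and in all 4 both members changed in the same direction. PECAM1 and MILR1 on chromosome 17 both fell, 35260 bases apart, as did PTPN18 and FAR2P2 on chromosome 2, 41345 bases apart. SP110 and SP140 overlap and both rose, as did PRSS2 and TRBC2. The pairs hold 8 of the 99 called genes (8.08%), while 336 of 16538 genes not called (2.03%) lay within the same distance of a called gene.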
